A study of Mus musculus with 4 samples.

Results

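Voltage-gated potassium channels open when the membrane depolarises and carry the potassium current that ends an action potential, sets the interval to the next one and holds the resting potential. Each channel is built from 4 pore-forming subunits, and subunits of one family can mix, so the set of subunit genes that a cell transcribes bears on which currents it can make. The Kv1, Kv2, Kv3 and Kv4 families form delayed rectifier and A-type channels, the Kv7 family forms the M-current, and the EAG, ERG and ELK families form channels that shape excitability near threshold. The Kv5, Kv6, Kv8 and Kv9 subunits form no channel alone and modify Kv2 channels when they join them.

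The genes described here are those whose symbol starts with Kcn followed by a, b, c, d, f, g, h, q, s or v and a number, and that reached 100 UMIs (unique molecular identifiers, each counted once per transcript molecule) summed over the 4 count matrices. This rule took 37 of 33696 gene features. A total of 35 encode channel subunits, and Kcnq1ot1 and Kcnd3os are non-coding RNAs that overlap or lie antisense to Kcnq1 and Kcnd3. Another 5 matching genes fell under the minimum, with 80 UMIs for Kcng4, 40 for Kcnv2, 33 for Kcna5, 23 for Kcna10 and 4 for Kcna7. The member just above it was Kcna3, with 119 UMIs.

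The nuclei came from mouse brain 21 days after photothrombotic injury, a focal cortical lesion made by illuminating a light-activated dye. One library was labelled control (genotype label WT) and one Cxcl12-cKO, with Col1a2(creER) and Cxcl12(flox) alleles, in which tamoxifen-induced Cre acts in Col1a2-expressing cells, chiefly fibroblasts, and is meant to remove the chemokine gene Cxcl12. All mice were injured and given tamoxifen. The paper's methods describe controls of such strains as littermates that lacked Cre or carried only 1 floxed allele, with other kinds in select experiments. Which kind these control mice were is not stated. Tissue of 1 male and 1 female mouse was pooled per genotype, lesional and perilesional (parenchyma) nuclei were tagged, mixed at 75% and 25% and captured together, and mice were 7 to 21 weeks old, the range that holds where no other age is stated.

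Each genotype was 1 library, so the comparison of libraries has no test. Classes were clusters of the same nuclei, so ratios between classes are descriptions, given with their values in nuclei assigned to each of the 4 mice, and only the regions were tested over those mice. Levels are CPM, a gene's UMIs scaled to the total UMIs of its class, and intervals are 95% counting intervals that leave out variation between mice. Where 2 values stand together, the first is the library labelled control and the second the library labelled Cxcl12-cKO. A difference between classes was called where the log2 CPM ratio was at least 1, in the same direction, in each library. A difference between regions was called at a log2 ratio of at least 0.5 in each library, and one between libraries at 0.5 with the same sign in the nuclei of the female and of the male mice. Genes with under 100 UMIs in the classes compared were left out. The share of all compared genes that met the same rule is given beside each count as the background.

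After filtering, 21743 of 23489 barcodes remained, with medians of 2962 and 2975 UMIs in the lesion and 15915 and 16648 UMIs in the parenchyma, and 47 barcode sequences occurred in both libraries. Classes were clusters made without the 37 genes, named by markers and written as class-like. Parenchymal neurons comprised 2184 and 2056 excitatory neuron-like and 347 and 384 inhibitory neuron-like nuclei, and the lesion held 4162 and 4082 fibroblast-like nuclei. Subcortical tissue was said to be removed at dissection, yet 95 and 106 parenchymal nuclei were striatal projection neuron-like. In lesional fibroblast-like nuclei Cxcl12 itself had 106 CPM under the label control and 216 CPM under the label Cxcl12-cKO, which goes against the second label, although counts near the 3′ end need not report a deletion elsewhere in the gene. The libraries are named by their labels throughout. Clusters kept without a name by thresholds set after the clusters were seen held, in the lesion, 81 and 31 neuronal nuclei with fibroblast genes, 70 and 44 glial nuclei with fibroblast genes, 38 and 27 glial nuclei with myeloid genes, 18 and 37 dividing glial nuclei and 7 and 1 other neuronal nuclei. In the parenchyma they held 7 and 5 neuronal nuclei with fibroblast genes and 58 and 72 other neuronal nuclei.

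Neurons carried most of the subunit transcripts. Summed over the 35 subunit genes, parenchymal excitatory neuron-like nuclei held 9660 and 9821 CPM and inhibitory neuron-like nuclei 9001 and 8918 CPM. Oligodendrocyte precursor-like nuclei of the lesion stood nearly as high, at 8253 and 7571 CPM. Lesional astrocyte-like nuclei held 2568 and 1840 CPM, oligodendrocyte-like nuclei 2352 and 2270 CPM, fibroblast-like nuclei 896 and 777 CPM and myeloid-like nuclei 553 and 550 CPM. The totals of both neuron classes were close, while single genes differed widely between them.

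**Figure D1:**
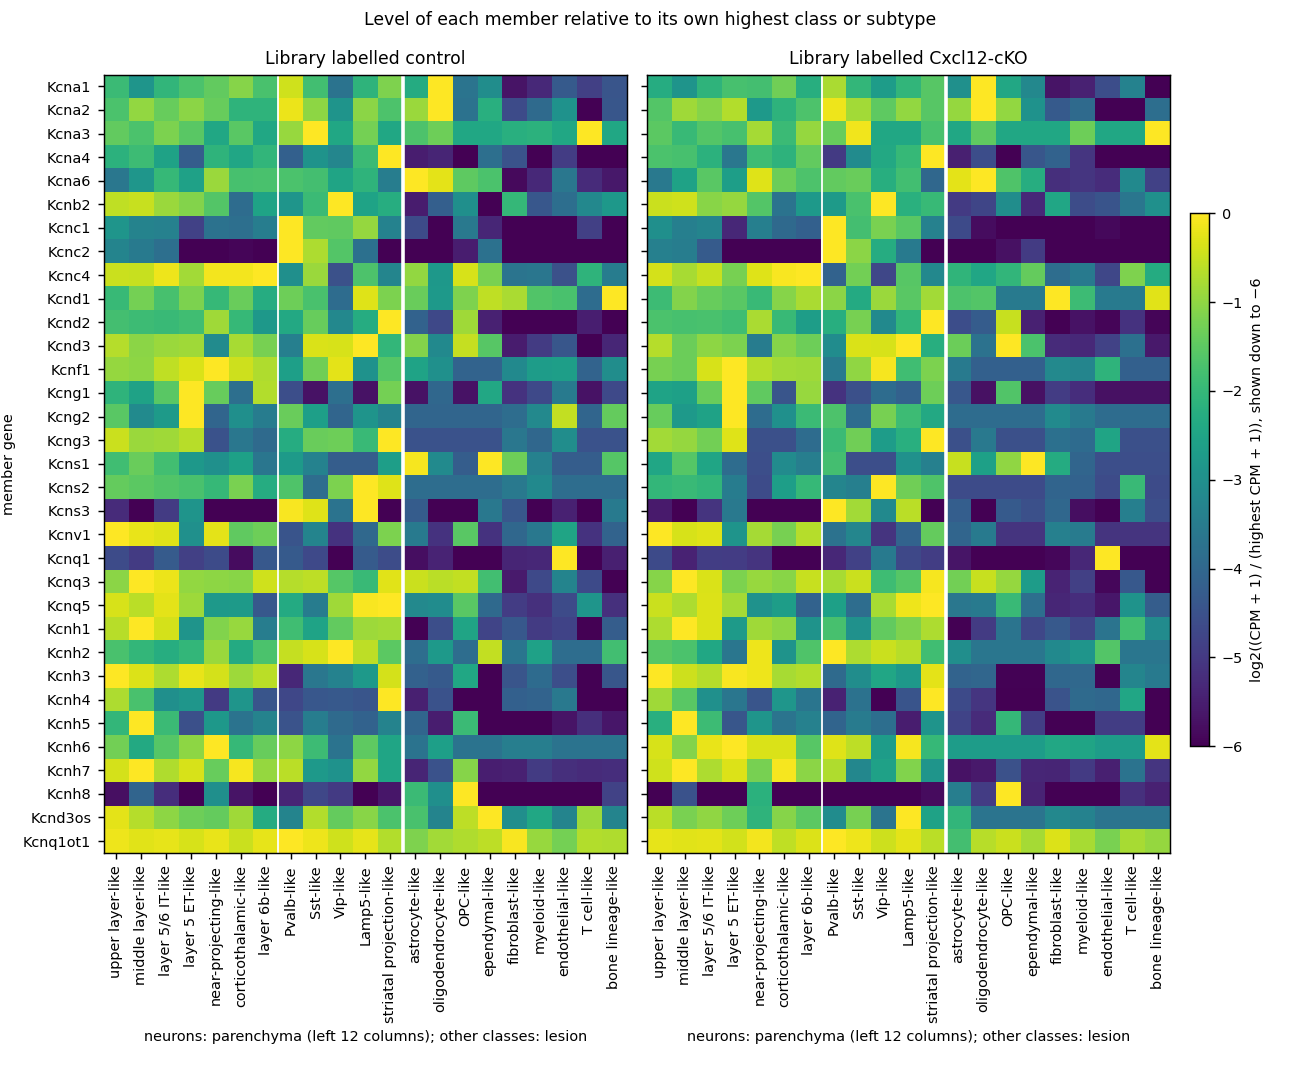
Each row is a member gene, each column a neuron subtype of the parenchyma or another class of the lesion, and colour gives log2 of the level plus 1 CPM over the gene's own highest level plus 1 CPM, from 0 (its highest class) down to −6, in the library labelled control (left) and labelled Cxcl12-cKO (right). Levels may be compared along a row and not between rows. IT stands for intratelencephalic, ET for extratelencephalic and OPC for oligodendrocyte precursor. Kcnc1 and Kcnc2 peak in the Pvalb-like column, Kcna1 and Kcna2 are high in Pvalb-like and oligodendrocyte-like columns, and Kcnq1 peaks in the endothelial-like column in both libraries.

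Inhibitory neuron-like nuclei were set against excitatory neuron-like nuclei of the parenchyma to ask which subunits separate the main neuron types. Of 36 members compared, 5 were higher in inhibitory neuron-like nuclei, against a background of 6.78% of 15239 genes, and 8 were lower, against 7.52%. All 13 calls passed the threshold in the nuclei of each of the 4 mice. Members had a median log2 ratio of −0.21, against 0.13 over all genes compared.

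The Kv3 family held 2 of the 5 higher genes. Its subunits open at strongly depolarised potentials and close fast, which lets a neuron fire at high rates. Kcnc2 (Kv3.2) stood at 2277 and 2136 CPM in inhibitory neuron-like nuclei and at 285 and 303 CPM in excitatory neuron-like nuclei, a log2 ratio of 3.0 and 2.82. Kcnc1 (Kv3.1) stood at 241 and 227 CPM against 43.9 and 43.0 CPM, a log2 ratio of 2.46 and 2.40. Each mouse showed both differences, with log2 ratios of 2.88 to 3.02 for Kcnc2 and 2.24 to 2.52 for Kcnc1. Kcnc4 (Kv3.4), an A-type member of the family, was lower in inhibitory neuron-like nuclei, at 6.14 and 5.71 CPM against 17.5 and 18.2 CPM.

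The modifier subunits also divided. Kcns3 (Kv9.3), a partner of Kv2 subunits, stood at 88.9 and 76.6 CPM in inhibitory neuron-like nuclei and at 3.01 and 3.07 CPM in excitatory neuron-like nuclei. This was a log2 ratio of 4.88 and 4.64, and it reached 4.57 to 4.94 in each mouse. Kcnv1 (Kv8.1) went the other way, at 1.27 and 2.02 CPM against 25.3 and 24.6 CPM, and Kcng1 (Kv6.1) likewise, at 1.06 and 1.34 CPM against 13.7 and 12.1 CPM. Kcnb2 (Kv2.2), a delayed rectifier subunit that such modifiers join, was not called, at log2 ratios of −0.64 and −0.67.

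Among the EAG, ERG and ELK genes 4 of 8 were lower in inhibitory neuron-like nuclei and 1 was higher. The ELK genes Kcnh3 (Kv12.2) and Kcnh4 (Kv12.3), whose family opens near the resting potential, stood at 7.41 and 7.73 CPM against 47.0 and 45.4 CPM and at 2.96 and 2.18 CPM against 19.7 and 17.9 CPM. The EAG genes Kcnh5 and Kcnh1 stood at 58.2 and 58.0 CPM against 235 and 242 CPM and at 153 and 140 CPM against 320 and 319 CPM. The ERG gene Kcnh2 was higher, at 11 and 8.91 CPM against 2.73 and 2.10 CPM. Kcnh7, another ERG gene, was not called, with log2 ratios of −0.84 and −0.93.

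Kcnq5 and Kcnq3, Kv7 genes that form the M-current, were not called, with log2 ratios of −0.76 and −0.79 for Kcnq5 and −0.41 and −0.30 for Kcnq3. No Kv1 or Kv4 gene was called, and Kcnd2 (Kv4.2), the A-type subunit of dendrites, differed by −0.07 and −0.05. Of 14 auxiliary genes compared, Kcnab1, Kcnab3, Kcnip1, Dpp6 and Cntnap2 were higher in inhibitory neuron-like nuclei and Kcnip3 and Dpp10 were lower. Of 23 other potassium channel genes (inward rectifier, tandem-pore, calcium- and sodium-activated), 0 were higher and 4 were lower.

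**Figure D2:**
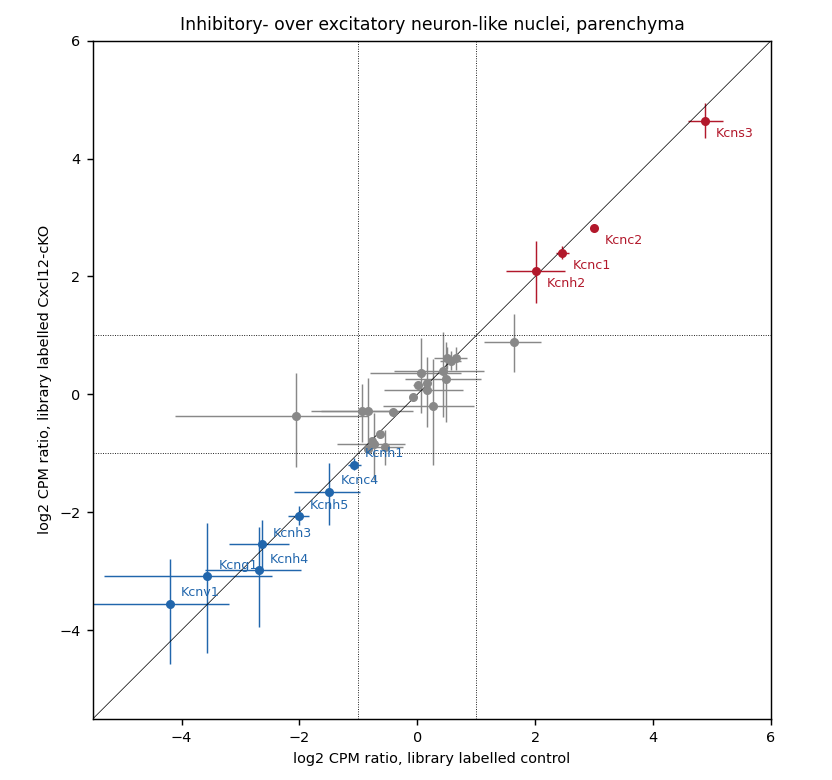
Each point is a member gene, with the log2 CPM ratio of inhibitory over excitatory neuron-like nuclei of the parenchyma in the library labelled control on the horizontal axis and in that labelled Cxcl12-cKO on the vertical axis, bars show 95% counting intervals and dotted lines mark the threshold of 1. Red points were higher and blue points lower in both libraries, and the points lie close to the line of equal ratios, from Kcns3 at 4.88 and 4.64 to Kcnv1 at −4.20 and −3.55.

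Promoters are shown for genes called in opposite directions in this comparison, since members that move apart invite a look at their start sites. They run from 250 bases before to 50 bases after the start of transcription in RefSeq (mouse GRCm38.p6, not the build of the counts), read 5′ to 3′ on the gene's strand, with CG dinucleotides in capitals. Kcnc1 lies at chr7:46396218-46396517 (plus strand) and Kcns3 at chr12:11150324-11150623 (minus strand, one of 2 starts listed), and both were higher in inhibitory neuron-like nuclei. Kcnh5 lies at chr12:75177283-75177582 and Kcnh4 at chr11:100759729-100760028 (both minus strand), and both were lower.
Kcnc1: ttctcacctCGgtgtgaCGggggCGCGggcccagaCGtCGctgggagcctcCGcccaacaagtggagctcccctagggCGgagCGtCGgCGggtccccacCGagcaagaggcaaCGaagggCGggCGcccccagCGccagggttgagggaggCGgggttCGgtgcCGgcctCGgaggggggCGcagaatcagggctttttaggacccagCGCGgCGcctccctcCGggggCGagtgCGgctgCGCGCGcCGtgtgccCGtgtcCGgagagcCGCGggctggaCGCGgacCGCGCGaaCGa
Kcns3: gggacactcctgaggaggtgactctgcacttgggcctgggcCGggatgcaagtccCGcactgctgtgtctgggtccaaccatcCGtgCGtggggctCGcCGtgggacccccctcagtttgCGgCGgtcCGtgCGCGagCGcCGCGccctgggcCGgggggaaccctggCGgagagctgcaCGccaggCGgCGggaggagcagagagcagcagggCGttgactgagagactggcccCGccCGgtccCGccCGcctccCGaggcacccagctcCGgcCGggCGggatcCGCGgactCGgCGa
Kcnh5: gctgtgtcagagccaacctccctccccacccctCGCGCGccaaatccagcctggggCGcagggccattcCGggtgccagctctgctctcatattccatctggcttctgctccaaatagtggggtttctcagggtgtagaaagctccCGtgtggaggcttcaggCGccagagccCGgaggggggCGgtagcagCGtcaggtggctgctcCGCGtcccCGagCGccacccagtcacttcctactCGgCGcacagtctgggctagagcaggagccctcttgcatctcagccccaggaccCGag
Kcnh4: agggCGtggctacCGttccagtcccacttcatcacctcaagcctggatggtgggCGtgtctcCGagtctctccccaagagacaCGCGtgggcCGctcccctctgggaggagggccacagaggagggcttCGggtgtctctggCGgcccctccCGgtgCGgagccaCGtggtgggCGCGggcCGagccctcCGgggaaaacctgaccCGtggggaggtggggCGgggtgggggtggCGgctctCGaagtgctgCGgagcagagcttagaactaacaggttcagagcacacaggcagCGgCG
These windows hold 41, 32, 17 and 23 CG dinucleotides, but CG counts did not follow the direction of the calls. The 8 windows of 4 genes called higher ran from 3, in Kcnc2, to 41, and the 4 windows of 4 genes called lower from 17 to 27, in Kcnh1. Over the 28 promoters matched to 23 member genes the median was 20, against 7 over all 32851 promoters in the table. Counted by gene, with any window of a gene, TATAAA was in 0 of 23 members and in 15.7% of all 27025 genes, CAGCTG was in 4 of 23 against 18.3%, and TTCAGCACC, which is part of the element bound by the repressor REST, was in 1 of 23 against 0.433%, each searched on both strands. A match describes letters in the window and was not tested as a site.

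Across 11 cortical neuron subtypes of the parenchyma, which leave out striatal projection neuron-like nuclei, 25 of 36 members had their highest level in the same subtype in both libraries, against 40.1% of 14713 genes, and 16 had the same lowest subtype, against 31.9%. These genes were not matched to the members for depth. Pvalb-like interneurons, the fast-spiking cells, held the highest level of several subunit genes in both libraries. Kcnc2 stood there at 4076 (3979 to 4174) and 4329 (4236 to 4423) CPM, against 2460 and 2091 CPM in Sst-like, 1349 and 892 CPM in Vip-like and 296 and 374 CPM in Lamp5-like interneurons. Kcnc1 stood at 404 and 425 CPM in Pvalb-like interneurons. Kcna1 (Kv1.1) and Kcna2 (Kv1.2), low-threshold channels of axons, stood there at 115 and 102 CPM and at 76.5 and 67.1 CPM. Kcns3 was shared between subtypes, at 115 and 125 CPM in Pvalb-like, 119 and 80.3 CPM in Lamp5-like and 96.4 and 69.4 CPM in Sst-like interneurons, against 8.08 and 13.2 CPM in Vip-like ones.

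The other interneurons peaked in other genes. Lamp5-like interneurons held the highest level of Kcnq5 (Kv7.5), at 3285 and 3212 CPM, and of the A-type gene Kcnd3 (Kv4.3), at 423 and 468 CPM, among these 11 subtypes. Vip-like interneurons held the highest level of Kcnb2, at 1844 and 1798 CPM, which was lowest in corticothalamic neuron-like nuclei, at 125 and 136 CPM.

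Pvalb- and Sst-like interneurons were pooled and compared with Vip- and Lamp5-like interneurons, which differ in developmental origin. Of 20 members compared 3 were higher, against a background of 4.36% of 8667 genes, and 4 were lower, against 3.90%. With counts scaled by the median ratio over genes the calls were 1 higher and 5 lower. Kcnc2 stood at 3407 and 3334 CPM against 625 and 517 CPM, Kcna1 at 85.5 and 75.4 CPM against 27.8 and 37.0 CPM, and Kcnq3 at 858 and 868 CPM against 377 and 429 CPM. Of these, Kcnc2 alone passed the threshold in each of the 4 mice, and Kcna1 and Kcnq3, with log2 ratios of 1.01 and 1.02 in the second library, fell under it with that other scaling. The lower genes included Kcnq5, at 528 and 441 CPM against 2855 and 2900 CPM, Kcnd3, at 162 and 195 CPM against 393 and 439 CPM, and the A-type Kv1 gene Kcna4, at 11 and 6.99 CPM against 28.6 and 26.1 CPM. The pooled Kcnd3 value joins unlike subtypes, with Pvalb-like interneurons at 39.2 and 54.0 CPM and Sst-like ones at 336 and 371 CPM, close to Vip-like ones at 326 and 363 CPM. So the Kcnd3 call rests on Pvalb-like interneurons. The pooled Kcna1 value also joins unlike subtypes, with Pvalb-like interneurons at 115 and 102 CPM. The second-highest of the 11 subtypes held Kcna1 at 71.9 and 70.5 CPM, so Sst-like interneurons stood no higher than that. The M-current genes split, with Kcnq3 higher in Pvalb- and Sst-like and Kcnq5 in Vip- and Lamp5-like interneurons. Kcnd2, Kcnh7 and Kcnq1ot1 were not called, with log2 ratios of 0.62 and 0.57, 0.18 and 0.03, and 0.22 and 0.24. Among auxiliary genes 2 of 13 were higher (Kcnab3 and Kcnip2) and 2 lower, and among other potassium channels 3 of 14 were higher (Kcnk10, Kcnk12 and Kcnma1) and 4 lower.

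Excitatory neuron-like subtypes had their own leading genes. Middle layer-like nuclei held the highest levels of Kcnh5, at 673 and 691 CPM, with the next subtype at 179 and 186 CPM, and also of Kcnh1 (506 and 499 CPM), Kcnh7 (2852 and 2962 CPM) and Kcnq3 (1331 and 1354 CPM). Layer 5 extratelencephalic neuron-like nuclei, which project to the brainstem and cord, held those of Kcng1 (51.0 and 52.3 CPM) and the Kv6 gene Kcng2 (15.6 and 13.8 CPM). Near-projecting neuron-like nuclei held those of Kcnd2, at 3431 and 3570 CPM, and of Kcna6 (Kv1.6), at 107 and 125 CPM. Upper layer-like nuclei held those of Kcnh3 (63.5 and 61.5 CPM), Kcnv1 (33.8 and 33.1 CPM) and Kcnh4 (43.1 and 35.1 CPM). For some of these the next subtype was within counting error, namely for Kcnh3 in both libraries, with layer 5 extratelencephalic neuron-like nuclei at 54.8 and 59.5 CPM, for Kcnv1 in the library labelled control, with middle layer-like nuclei at 29.5 CPM, and for Kcng2 in that labelled Cxcl12-cKO, with Vip-like interneurons at 5.26 CPM.

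Between the 5 deep-layer subtypes and upper layer-like nuclei 35 members were compared. One was higher in deep layers, against a background of 4.04% of 13603 genes, and 4 were lower, against 4.38%. The higher gene was Kcna6, at 54.8 and 53.5 CPM against 15.6 and 12 CPM. The lower genes were Kcnb2, at 603 and 540 CPM against 1237 and 1291 CPM, Kcnc2, at 136 and 108 CPM against 414 and 411 CPM, Kcnh4, at 7.56 and 6.61 CPM against 43.1 and 35.1 CPM, and the modifier Kcng3, at 6.62 and 5.52 CPM against 15.2 and 12 CPM. Kcna6 and 3 of the 4 lower genes passed the threshold in each mouse, and Kcng3 missed it in 1 mouse, at −0.84. The deep subtypes were not alike in Kcng3, which stood at 13.5 and 18.0 CPM in layer 5 extratelencephalic neuron-like nuclei, within counting error of the upper layer, and in corticothalamic neuron-like ones at 0.843 CPM and at 0 UMIs, which allows up to 0.641 CPM. Nor were the deep subtypes alike in Kcnb2 and Kcnc2. Layer 5/6 intratelencephalic neuron-like nuclei held Kcnb2 at 980 and 864 CPM and Kcnc2 at 291 and 222 CPM. These levels were short of the threshold against upper layer-like nuclei. Corticothalamic neuron-like nuclei held Kcnb2 at 125 and 136 CPM and Kcnc2 at 66.8 and 54.0 CPM. Kcnh7, Kcnq5, Kcnd2 and Kcnq3 were not called. Auxiliary genes gave 4 higher (Kcnab1, Kcnip1, Kcnip3 and Dpp10) and 1 lower of 14, and other potassium channels 3 higher (Kcnk2, Kcnn1 and Kcnn2) and 1 lower of 23.

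Striatal projection neuron-like nuclei, described after their values were seen, stood above the excitatory and inhibitory neuron-like classes in several genes. Kcnd2 stood at 6240 and 6084 CPM there, against 1772 and 1866 CPM in excitatory neuron-like nuclei of the parenchyma. Kcna4 stood at 136 and 114 CPM against 29.2 and 32.2 CPM, Kcnh4 at 72.9 and 64.4 CPM against 19.7 and 17.9 CPM, and Kcnq5 at 3444 and 3597 CPM against 1989 and 1977 CPM. For Kcnd2, Kcna4, Kcnh4 and Kcnq5 these levels are also above those of the highest of the 11 cortical subtypes in each library.

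Glia, fibroblasts and immune cells raise the question of how much of a neuronal gene's count is RNA set free from neurons, since nuclei of both regions shared a capture. A list of 10 neuronal genes was used to set a level for free RNA. Their summed level was 3.05% and 3.47% of that in parenchymal excitatory neuron-like nuclei in lesional fibroblast-like nuclei, 4.02% and 4.18% in astrocyte-like, 4.44% and 4.45% in myeloid-like, 5.93% and 8.43% in oligodendrocyte-like and 22.9% and 12.4% in oligodendrocyte precursor-like nuclei. A member's free-RNA level was that share of its own level in excitatory neuron-like nuclei, and a member was counted as above it at 2 times that level or more in both libraries, with its counting interval above the level and over 3 UMIs. The count was 20 of 37 members in astrocyte-like nuclei, against a background of 70.4% of 18597 genes, 17 in fibroblast-like nuclei, against 86.9%, and 10 in myeloid-like nuclei, against 79.0%. It was 10 in oligodendrocyte precursor-like nuclei, against 33.5%, and 9 in oligodendrocyte-like nuclei, against 60.0%, and in all 5 classes the share of members was below that of all genes. Genes that are much higher in inhibitory neurons, such as Kcnc2 and Kcns3, can pass this level through RNA from those neurons. That part was not tested. Single genes of the list gave unlike shares, from 13.1% to 32.9% and from 2.84% to 20.3% in oligodendrocyte precursor-like nuclei. In fibroblast-like nuclei they ran from 2.00% to 13.0% and from 2.51% to 12.8%. Whether a class transcribes genes of the list itself, which would raise its level, was not tested.

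Astrocyte-like nuclei were lower than excitatory neuron-like nuclei in 20 of 36 members, against a background of 18.1% of 15333 genes, and higher in 4, against 19.8%. The astrocyte-like nuclei were mostly lesional, at 405 and 423 against 35 and 44 of the parenchyma, and the neurons were parenchymal. Class and region were therefore not separated here. The 20 lower genes passed the threshold in each of the 4 mice. Among the widest were Kcnh1, at 5.38 and 6.14 CPM against 320 and 319 CPM, Kcnh7, at 67.5 and 55.7 CPM against 2175 and 2241 CPM, and Kcnb2, at 35.3 and 52.9 CPM against 965 and 999 CPM, and of these Kcnh1 and Kcnh7 stood under the free-RNA level in both libraries. The 12 widest also held the modifiers Kcng1, Kcng3, Kcns2 and Kcnv1, the A-type gene Kcna4 and the ELK and ERG genes Kcnh3, Kcnh4 and Kcnh6, each under 4 CPM in astrocyte-like nuclei. The median log2 ratio over members was −2.23, or −1.37 with the 6 members that had 0 UMIs in a library held at the bound that 3 UMIs give, and 0.16 over all genes.

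Genes higher in astrocyte-like nuclei, and those higher in oligodendrocyte-like nuclei, are named after their values were seen. Kcna6 stood at 183 and 119 CPM in astrocyte-like nuclei against 35.4 and 32.1 CPM, Kcnh8 (the ELK gene of Kv12.1) at 26.9 and 18.4 CPM against 3.49 and 4.29 CPM, and the Kv9 modifier Kcns1 at 15.5 and 13.7 CPM against 3.94 and 3.53 CPM. Each of these 3 passed the threshold in each mouse. Kcnq3 and Kcnd3, members with high counts, were not called and stood far above the free-RNA level, Kcnq3 at 896 and 540 CPM against 927 and 915 CPM, and Kcnd3 at 179 and 168 CPM against 245 and 252 CPM. The inward rectifiers Kcnj10 and Kcnj16, which carry the potassium conductance of astrocytes, were among 4 of 25 other potassium channels that were higher, with Kcnk1 and Kcnn3, and 15 were lower. Of 14 auxiliary genes 0 were higher and 9 lower.

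Oligodendrocyte-like nuclei were higher in 3 members, against 17.2% of 15080 genes, all of the Kv1 family, and lower in 26 of 36, against 18.9%. They too were mostly lesional, at 241 and 270 against 30 and 34 of the parenchyma, and were set against parenchymal neurons. Kcna1 stood at 155 and 174 CPM against 42.4 and 41.6 CPM, Kcna6 at 166 and 153 CPM against 35.4 and 32.1 CPM and Kcna2 at 80.5 and 71.6 CPM against 31.5 and 30.1 CPM. Each of these passed the threshold in all 4 mice, with log2 ratios of 1.10 to 2.64, while 20 of the 26 lower calls did. The 12 widest lower genes included Kcnh1, Kcnh3, Kcnh4, Kcnh5 and Kcnh7, the modifiers Kcng1, Kcng3, Kcns2 and Kcnv1, Kcnb2 and Kcnc2, the last of which stood at 23.9 and 23.3 CPM against 285 and 303 CPM. Kcnd2 and Kcnq5 were also lower, at 275 and 405 CPM against 1772 and 1866 CPM and at 371 and 345 CPM against 1989 and 1977 CPM. Kcnq3 stood as high as in excitatory neuron-like nuclei, at 945 and 938 CPM against 927 and 915 CPM. The median log2 ratio was −2.58 (−2.40 with the 7 members at 0 UMIs in a library held at their bound), against 0.12 over all genes. Among other potassium channels 2 of 24 were higher (Kcnj10 and Kcnk13) and 17 lower, and among auxiliary genes 0 of 14 higher and 11 lower.

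Oligodendrocyte precursor-like nuclei, few in number at 49 and 46 and described after their values were seen, held Kcnd2 at 3461 (3196 to 3743) and 4292 (3999 to 4600) CPM in the lesion and 4731 (4288 to 5207) and 4355 (3876 to 4877) CPM in the parenchyma. All 4 values were above the excitatory neuron-like levels of 1772 and 1866 CPM. Kcnh8 stood in the parenchymal nuclei, only 16 and 11 in number, at 441 and 377 CPM, against 3.49 and 4.29 CPM in excitatory neuron-like ones. Endothelial-like nuclei of the lesion held Kcnq1, the subunit of the slow cardiac delayed rectifier, at 89.7 (67.0 to 118) and 103 (71.0 to 145) CPM, against 3.06 and 2.57 CPM in parenchymal excitatory neuron-like nuclei. Kcnq1 overlaps Kcnq1ot1, and how reads were divided between them was not tested.

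**Figure D3:**
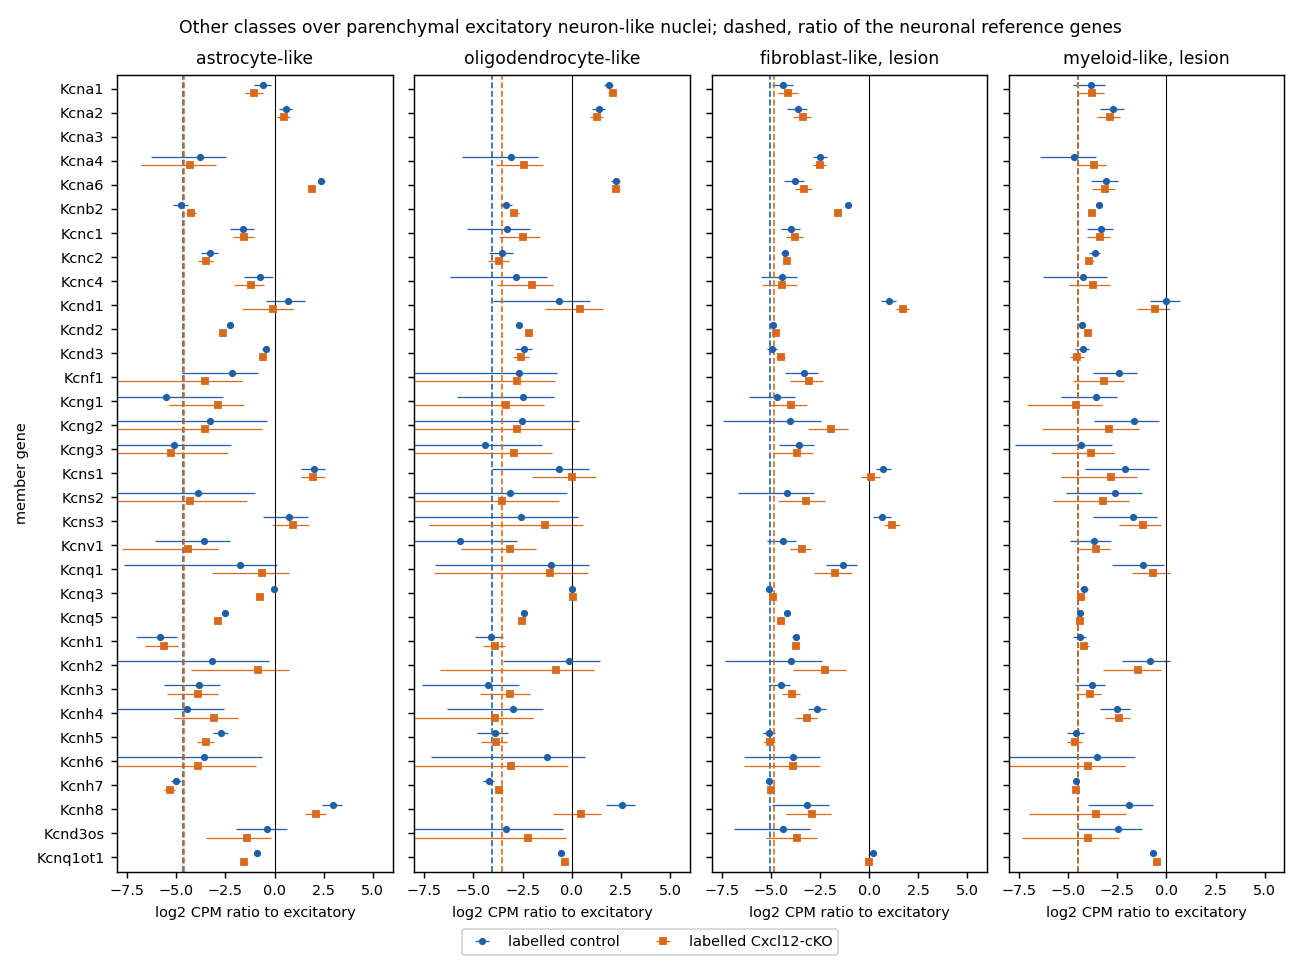
Each panel gives, for 1 class, the log2 CPM ratio of compared members to parenchymal excitatory neuron-like nuclei, with circles for the library labelled control, squares for that labelled Cxcl12-cKO, bars for 95% counting intervals and a dashed line per library at the ratio of the neuronal reference genes. Members with 0 UMIs are drawn at a fitted value with an arm to the edge. In the astrocyte-like panel Kcna6, Kcnh8 and Kcns1 lie right of 0, in the oligodendrocyte-like panel Kcna1, Kcna2 and Kcna6 do, and in the fibroblast-like panel Kcnb2 stands clear of the dashed lines.

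Lesional fibroblast-like nuclei were lower than excitatory neuron-like nuclei in 31 of 36 members, against a background of 22.8% of 16574 genes, and higher in 0, against 28.1%. The median log2 ratio was −3.71 over the members and 0.33 over all genes. A total of 30 of the 31 passed the threshold in each mouse. The widest included Kcnh5, at 6.95 and 7.25 CPM against 235 and 242 CPM, Kcnh7, at 64.3 and 70.6 CPM against 2175 and 2241 CPM, Kcnq3, at 27.1 and 31.1 CPM against 927 and 915 CPM, Kcnd2, at 58.9 and 70.6 CPM against 1772 and 1866 CPM, and Kcnq5, at 112 and 87.2 CPM against 1989 and 1977 CPM. The 12 widest also included Kcnd3, Kcnc2, Kcnc4, Kcng1, Kcna1 and Kcnh3, among which Kcnc2 stood at 14.5 and 16.5 CPM and Kcnd3 at 8.07 and 11.3 CPM. Kcnq1ot1 was not called, at 704 and 627 CPM against 614 and 638 CPM. Members not called lower also included Kcnd1 (Kv4.1), at 7.65 and 10.7 CPM against 3.84 and 3.27 CPM, Kcns3 and Kcns1. Among other potassium channels Kcnj2, Kcnk5 and Kcnk6 were higher and 17 of 25 lower, and 13 of 14 auxiliary genes were lower.

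The delayed rectifier gene Kcnb2 stood apart in these nuclei. It stood at 456 (445 to 467) and 331 (321 to 340) CPM against 965 and 999 CPM in excitatory neuron-like nuclei. It was called lower, yet was 15.5 and 9.54 times its free-RNA level. In the few fibroblast-like nuclei of the parenchyma, 51 and 50 in number and looked at after their values were seen, Kcnb2 stood at 2601 (2394 to 2821) and 2785 (2566 to 3018) CPM, from 582 and 594 UMIs. This is above its level in excitatory neuron-like nuclei, while Kcnd2 in the same nuclei stood at 58.1 and 61.0 CPM, close to its lesional value.

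The fibroblast-like class was made of 2 clusters, so the members were also compared between them. The first was led by Col14a1, Ism1 and Pappa (2086 and 2155 lesional nuclei) and the second by Slc6a20a, Slc6a13 and Ptgds (2076 and 1927 lesional nuclei). Of 17 members compared in the lesion 2 were higher in the second cluster, against a background of 3.62% of 12572 genes, and 4 were lower, against 3.40%. Kcnb2 stood at 658 and 497 CPM in the second against 287 and 208 CPM in the first, and Kcns3 at 8.16 and 10.5 CPM against 1.93 and 4.16 CPM. Those that went the other way included Kcna4, at 1.39 and 2.58 CPM against 8.38 and 7.96 CPM, Kcnd1, at 4.77 and 6.60 CPM against 10.1 and 13.7 CPM, and Kcns1, at 1.08 and 1.61 CPM against 11.1 and 5.35 CPM.

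In the parenchyma the order for Kcnb2 was reversed. The 30 and 27 parenchymal nuclei of the first cluster held it at 3819 (3512 to 4146) and 4078 (3747 to 4429) CPM, and the 21 and 23 of the second at 148 (73.9 to 265) and 424 (290 to 599) CPM. Within the first cluster all 4 mice were high, from few nuclei each. The female and male of the library labelled control stood at 3134 CPM (15 nuclei) and 4455 CPM (13 nuclei). Those labelled Cxcl12-cKO stood at 4179 CPM (13 nuclei) and 4606 CPM (6 nuclei). The nucleus with the most UMIs gave 69 of 571 and 48 of 562 per library. In the same order of mice it gave 31 of 217, 69 of 320, 48 of 286 and 37 of 147. The clusters were made from the same nuclei, so these values are descriptions, and the alternative settings were not run on them.

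Lesional myeloid-like nuclei were lower in 32 of 36 members, against a background of 24.4% of 16109 genes, and higher in 0, against 31.0%. Their median log2 ratio was −3.55, against 0.38 over all genes, and 30 of the 32 passed the threshold in each mouse. The widest included Kcnh5, at 9.56 and 9.55 CPM against 235 and 242 CPM, Kcnh7, at 91.0 and 93.0 CPM against 2175 and 2241 CPM, and Kcnd3, at 12.7 and 10.8 CPM against 245 and 252 CPM, and further Kcnh1, Kcnh3, Kcnq3, Kcnq5, Kcnd2, Kcna4, Kcnc4, Kcng1 and Kcng3. Kcnq1ot1, Kcnd1, Kcnq1 and Kcnh2 were not called. Kcna3 (Kv1.3), a channel of T cells and microglia, had too few UMIs to enter any of the 12 comparisons. Other potassium channels gave 5 higher (Kcnj2, Kcnk5, Kcnk6, Kcnk13 and Kcnn4) and 20 lower of 26, and 14 of 14 auxiliary genes were lower.

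Neurons of the lesion were set against those of the parenchyma to ask whether subunit levels differ beside the injury. There were 441 and 216 lesional excitatory neuron-like nuclei, with median depths of 13609 and 12715 UMIs against 17447 and 18408 UMIs in the parenchyma. Of 36 members 7 were lower in the lesion, against a background of 21.0% of 14992 genes, a share close to that of the members, and 0 were higher, against 1.39%. The median log2 ratio was −0.16 over the members and −0.17 over all genes. When counts were scaled by the median ratio over genes, which removes that shift, the calls were 4 lower and 4 higher. None of the 7 passed the threshold in every mouse, and 4 of them were lower in all 4.

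Kcna1 was lower in the lesion in every mouse. It stood at 23.4 and 24.8 CPM in lesional against 42.4 and 41.6 CPM in parenchymal excitatory neuron-like nuclei, a log2 ratio of −0.85 (and −0.74 in the second library), with −0.91 to −0.42 over the 4 mice. It was lower in the lesion in each of 4 excitatory subtypes in both libraries, with the widest difference in corticothalamic neuron-like nuclei, at 36.1 and 20.5 CPM against 71.9 and 70.5 CPM. In middle layer-like nuclei the difference, 15.6 and 18.1 CPM against 20.2 and 22.5 CPM, was within counting error, as was that in layer 5/6 intratelencephalic neuron-like nuclei of the library labelled Cxcl12-cKO, at 33.6 CPM against 39.7 CPM. In inhibitory neuron-like nuclei Kcna1 stood at 41.0 and 29.2 CPM in the lesion and 62.8 and 61.8 CPM in the parenchyma, again lower in 4 of 4 mice.

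The other genes called lower in lesional excitatory neuron-like nuclei were Kcna4, at 19.5 and 19.5 CPM against 29.2 and 32.2 CPM, Kcnf1 (Kv5.1), at 6.38 and 3.84 CPM against 9.45 and 8.29 CPM, Kcng3, at 6.84 and 6.28 CPM against 10.4 and 9.17 CPM, Kcns1, at 1.98 and 2.09 CPM against 3.94 and 3.53 CPM, and Kcnq1 and Kcnh6, at log2 ratios of −0.69 and −0.72 and of −0.69 and −1.50. The members with most UMIs stayed under this rule, at log2 ratios of 0.37 and 0.45 for Kcnh7, 0.47 and 0.54 for Kcnq5 and 0.41 and 0.37 for Kcnd2, while Kcnb2 and Kcnq3 gave −0.06 and −0.13 and 0.14 and 0.07. Since excitatory nuclei of no named subtype made up 16.7% and 17.1% of parenchymal but 1.81% and 0.926% of lesional excitatory neuron-like nuclei, ratios were also averaged over 4 subtypes, an alternative chosen after seeing the data. Then Kcna1 passed as lower, at −0.75 and −0.74, and Kcnq5 as higher, at 0.53 and 0.57. The other members that passed had 0 lesional UMIs in at least 1 subtype of a library, where the ratio rests on the 0.5 UMI added to each sum, and they are not read as called.

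The regions were also compared over the 4 mice, in a test added after seeing the data. UMIs of the nuclei assigned to a mouse were summed per region, and edgeR's quasi-likelihood test took the mouse as a block, with Benjamini-Hochberg adjustment over all genes. Of 36 members 10 were higher in lesional excitatory neuron-like nuclei, against a background of 10.6% of 14992 genes, and 2 were lower, against 14.5%. This test calls by adjusted p without a threshold on the ratio, so calls depend on counts. Background genes were not matched to the members for depth, so these shares are not read as a trait of the family. The lower genes were Kcna1, with a log2 ratio of −0.56 and an adjusted p of 0.0053, and Kcna4, with −0.48 and 0.024, each lower in 4 of 4 mice. The higher genes included Kcnh1 (0.74, adjusted p = 2.7e-05), Kcnq5 (0.71, adjusted p = 0.00036), Kcnh5 (0.63, adjusted p = 0.0045), Kcnh3 (0.55, adjusted p = 0.0025), Kcnh7 (0.54, adjusted p = 0.00052) and Kcnd2 (0.51, adjusted p = 0.00048), each higher in 4 of 4 mice. The EAG genes Kcnh1 and Kcnh5, the ELK gene Kcnh3 and the ERG gene Kcnh7 were thus 4 of the 10 members called higher. The other genes of these families, Kcnh2, Kcnh4, Kcnh6 and Kcnh8, were not called, at log2 ratios of 0.05, 0.30, −0.95 and −0.45. Kcna1 and Kcna4 were the only members called lower in this fit. Under its other settings the adjusted p of Kcna1 ran from 0.0011 to 0.035.

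Kcnc2 (0.45, adjusted p = 0.016) and Kcnq3 (0.28, adjusted p = 0.033) were higher in 3 of 4 mice. These 2 were not called when libraries were scaled by total counts instead of edgeR's trimmed mean of ratios, which moved the median of all genes from −0.03 to −0.18 and gave 7 higher and 3 lower members. Kcna4 was not called without the female mouse of either library, while Kcna1, Kcnh1, Kcnq5, Kcnh5, Kcnh3, Kcnh7 and Kcnd2 were called without any 1 mouse. The smallest sample was the male of the library labelled Cxcl12-cKO, with 37 lesional nuclei. Averaged within the 4 subtypes, the log2 ratios were 0.45 and 0.66 for Kcnh1, 0.48 and 0.58 for Kcnh5 and 0.24 and 0.49 for Kcnh3. The subtypes were not alike in Kcnh5. It was lower in lesional layer 5/6 intratelencephalic neuron-like nuclei, at −0.22 (−0.44 to −0.01) and −0.58 (−0.92 to −0.26). In each other subtype it was higher in both libraries, up to 1.24 and 1.02 in corticothalamic neuron-like nuclei.

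In inhibitory neuron-like nuclei the same test gave 1 higher of 22 members, Kcnh5 (0.67, adjusted p = 0.03), against 2.93% of 9808 genes, and 0 lower, against 6.62%, while 3 members were lower at an unadjusted p under 0.05. Kcna1 gave −0.59 with an adjusted p of 0.08, and of 0.05 to 0.2 under the other settings of this test. Kcnh5 was not called without the male mouse of the library labelled control or the female mouse of the other. Its log2 ratios averaged over Pvalb-, Sst- and Lamp5-like interneurons were −0.18 and −0.14, so the average within these subtypes was not higher in the lesion. The part of the subtype mix in the call was not tested.

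By the rule of ratios in both libraries, in inhibitory neuron-like nuclei, 102 and 79 of which were lesional, 2 of 22 members were lower in the lesion, against a background of 14.1% of 9808 genes, and 0 were higher, against 2.57%. Kcna1 was one of them. The median log2 ratio was 0.07 over the members and −0.06 over all genes. Other cells' markers moved with region. The 7 fibroblast markers summed to 75.4 and 51.6 CPM in lesional against 31.9 and 32.1 CPM in parenchymal excitatory neuron-like nuclei. In inhibitory neuron-like nuclei they summed to 102 and 63.9 CPM against 39.6 and 39.7 CPM. The 7 myeloid markers had a lower sum in the lesion, at 12.9 and 13.2 CPM against 39.0 and 40.7 CPM in the excitatory ones. Single myeloid markers did not all follow, since 2 and 3 of the 7 were higher in lesional excitatory neuron-like nuclei. In inhibitory neuron-like nuclei 5 and 2 of the 7 were higher. Their part in the ratios was not tested. Auxiliary genes gave 1 higher (Dpp10) and 0 lower of 14 in excitatory and 0 called of 13 in inhibitory neuron-like nuclei, and other potassium channels 1 higher (Kcnk9) and 4 lower of 23, and 1 higher (Kcnk13) and 1 lower of 16.

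**Figure D4:**
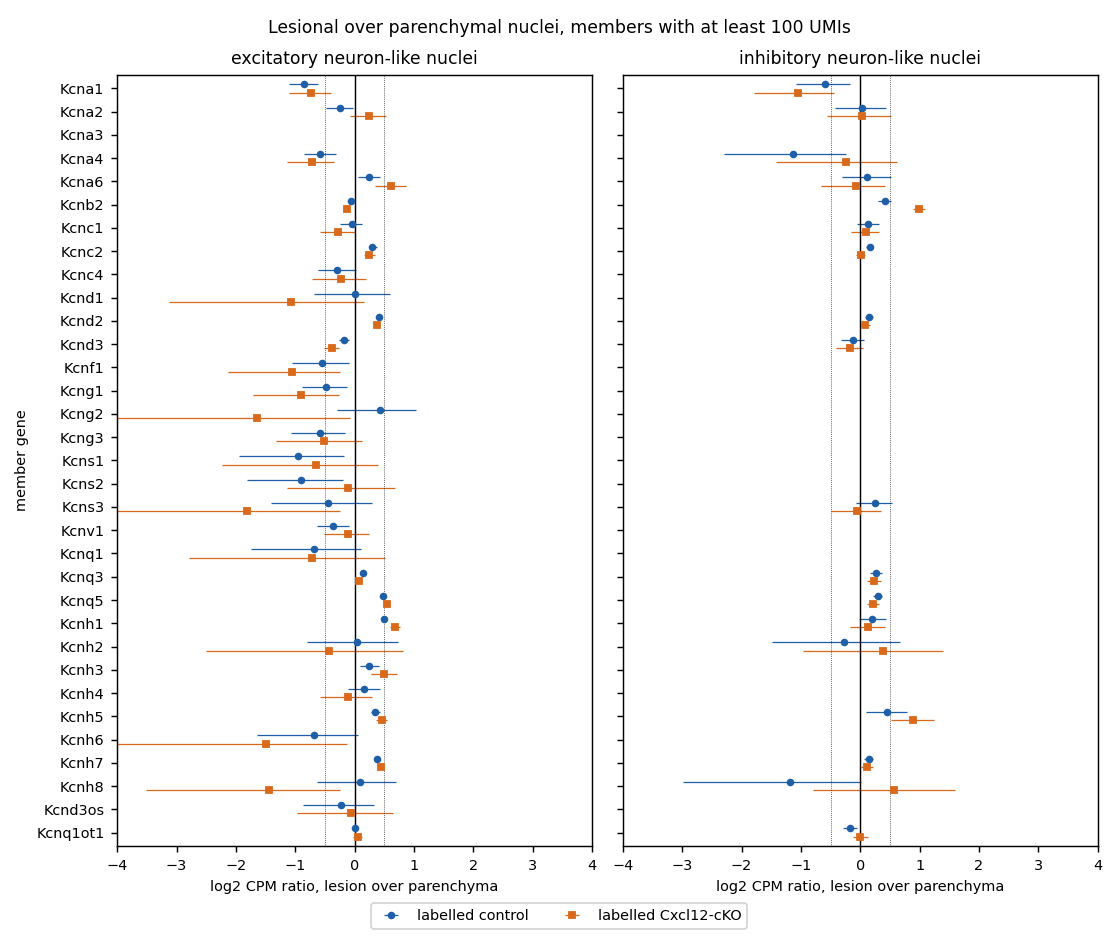
Log2 CPM ratio of lesional over parenchymal nuclei for members with at least 100 UMIs, in excitatory (left) and inhibitory (right) neuron-like nuclei, with circles for the library labelled control, squares for that labelled Cxcl12-cKO, bars for 95% counting intervals and dotted lines at −0.5 and 0.5. Kcna1 lies left of −0.5 in both panels and both libraries, and Kcnh7, Kcnq5 and Kcnd2 lie right of 0 in the left panel.

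The libraries were compared last, in 3 classes. In parenchymal excitatory neuron-like nuclei 0 of 36 members were called, against backgrounds of 1.61% higher and 0.813% lower of 14757 genes, and log2 ratios of the library labelled Cxcl12-cKO over that labelled control ran from −0.37 to 0.30. In inhibitory neuron-like nuclei 0 of 21 were called, against 1.23% higher and 1.51% lower of 9375 genes, with ratios from −0.31 to 0.19. Kcnc2 in inhibitory neuron-like nuclei, for example, stood at 2277 CPM in one library and 2136 CPM in the other. With 1 library per genotype, genotype and library cannot be told apart.

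In lesional fibroblast-like nuclei, the cells that Col1a2(creER) targets, 1 of 17 members was higher under the label Cxcl12-cKO, against a background of 2.86% of 12572 genes, and 1 was lower, against 2.35%. Kcns3 stood at 4.77 and 6.84 CPM, a log2 ratio of 0.52 with a counting interval of 0.06 to 0.99. Kcns1 stood at 6.52 CPM and 3.76 CPM, a log2 ratio of −0.79 with an interval of −1.30 to −0.30. Of the members with most UMIs, Kcnb2 stood at 456 and 331 CPM, lower in the second library in the female (−0.72) and the male (−0.36) nuclei with a pooled ratio of −0.46, and Kcnq5 stood at 112 and 87.2 CPM, with 0.14 in the female and −0.80 in the male nuclei. Kcnq1ot1, Kcnh7 and Kcnd2 were not called either, at 704 and 627 CPM, 64.3 and 70.6 CPM, and 58.9 and 70.6 CPM. No auxiliary gene was called in the 3 classes, and of other potassium channels Kcnk13 alone was called, higher in the fibroblast-like nuclei of the library labelled Cxcl12-cKO, 1 of 12.

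**Figure D5:**
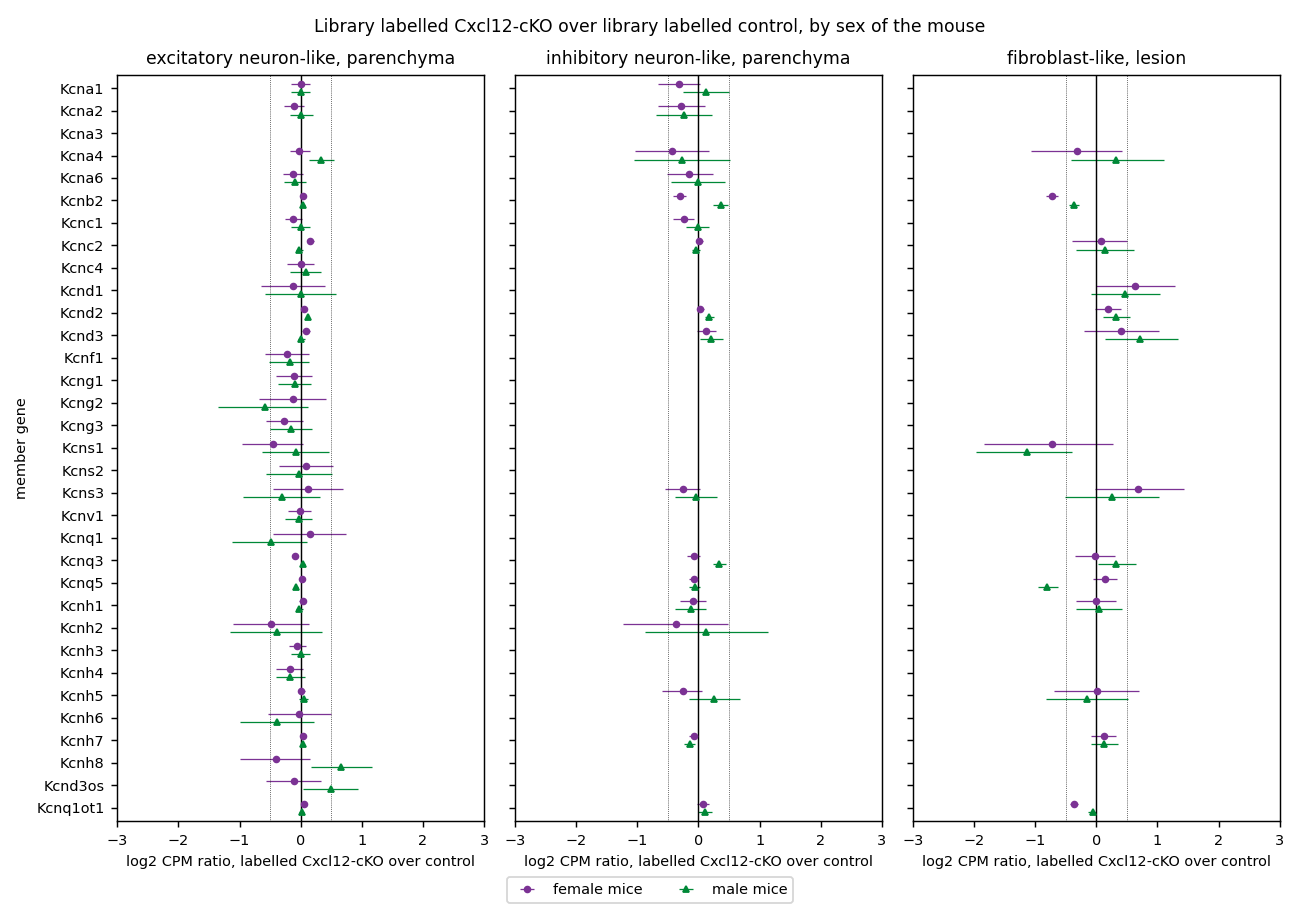
Log2 CPM ratio of the library labelled Cxcl12-cKO over that labelled control for compared members, in excitatory and inhibitory neuron-like nuclei of the parenchyma and fibroblast-like nuclei of the lesion, from nuclei assigned to the female mice (circles) and to the male mice (triangles), with 95% counting intervals and dotted lines at −0.5 and 0.5. Most neuronal points lie between the dotted lines, and Kcns1 in fibroblast-like nuclei lies left of −0.5 in both sexes.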

How the data were processed

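Single-nucleus RNA-seq libraries were made by the authors with a Chromium 3′ kit, aligned to GRCm39 with Cell Ranger 9.0.0 and split into lesion and parenchyma by multiplexing tags. The deposited matrices hold raw whole-number UMI counts, not normalized. The multiplexing tag libraries came with no separate table and were not analysed, and 0 columns of per-sample values were left unused.

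Barcodes in the outer 2.5% by UMIs or genes, or the top 2.5% by mitochondrial share, were removed, which kept 758 to 36243 UMIs, 585 to 6417 genes and up to 8.74% mitochondrial UMIs. Nuclei were clustered without the members in scanpy 1.11.5 (3000 variable genes, 30 components, 20 neighbours, Leiden resolution 0.25), neurons again with 2000 genes. A cluster was named from marker lists with at least 3 markers detected, and thresholds for naming were in part chosen once clusters were known. Doublets were not called, and nuclei holding UMIs of both sexes were left out in an alternative. UMIs were summed per class, region and library and scaled to CPM. Ratios had 0.5 UMI added to each sum, with exact Poisson intervals for levels and exact binomial intervals for ratios, which cover counting error only. Nuclei were assigned to the mouse of each sex by Xist and Y-linked UMIs. Between genotypes no p-value was computed, since each is 1 library, and between classes none, since classes were clusters of the same nuclei. For the regions, edgeR 4.0.16 (R 4.3.3) compared sums per mouse, scaled by trimmed mean of M-values, with the mouse as a block, so that its pairs are 2 regions of 1 mouse. Leidenalg 0.10.2, scipy 1.17.1, numpy 2.4.6 and matplotlib 3.10.9 ran under Python 3.11.15, and the calls were tested on simulated counts.

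The members, gene lists and comparisons were chosen with earlier results of these data known. In each comparison the text names the members called (the 12 widest where more were called) and the 5 with most UMIs, and says where others were named after their values were seen. The values of 4 members are not reported here, and those members stay in the counts and medians.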

Additional observations from a re-analysis of the deposited data

Results flagged for a closer look

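In 2 of the library comparisons a member moved in opposite directions in the nuclei of the female and of the male mice, with counting intervals that exclude 0 on both sides. Kcnb2, which encodes Kv2.2, had in parenchymal inhibitory neuron-like nuclei a log2 ratio of the library labelled Cxcl12-cKO over that labelled control of −0.31 (−0.41 to −0.21) for the female mice and 0.36 (0.24 to 0.48) for the male mice, a female minus male difference of −0.66. Kcnq3, a subunit of the M-current, had in parenchymal excitatory neuron-like nuclei ratios of −0.09 (−0.12 to −0.06) and 0.04 (0.01 to 0.07), a difference of −0.13. Each value compares 1 mouse with 1 mouse, so these differences were not tested beyond counting error.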

How the results depend on the processing

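Each genotype was 1 library, so libraries could not be paired, and pairs of regions from 1 mouse were tested. The 12 comparisons were repeated under 8 other settings (female-only and male-only settings could not be run for the library comparisons, whose calls use both mice) and under others chosen after seeing the data. Of 159 counts of called members 136 stayed within 1.5 times the main count, and of 660 repeats for 83 single calls 624 held, 34 kept their direction but missed the threshold and 2 changed direction. Those 2 were lesional over parenchymal ratios in excitatory neuron-like nuclei of the male mice, at 0.12 for Kcns1 and 0.11 for Kcng3. For the same comparison, 7 calls became 4 with no filter on nuclei, and 16 were made in the library labelled Cxcl12-cKO alone. For inhibitory neuron-like nuclei, 2 calls became 4 with nuclei weighted alike, 6 at a minimum of 30 UMIs, 4 in the library labelled control alone and 5 in the other alone. The 7 calls between Pvalb- and Sst-like and Vip- and Lamp5-like interneurons became 4 in the male mice, and the 5 between deep and upper layers 8 in the library labelled Cxcl12-cKO alone. Between libraries, 0 calls became 1 in excitatory neuron-like nuclei with nuclei weighted alike and 1 in inhibitory ones at 30 UMIs, and the 2 calls in fibroblast-like nuclei became 5 at 30 UMIs. Leaving out each mouse in turn gave 4 to 9 calls between regions in excitatory and 1 to 4 in inhibitory neuron-like nuclei, and 4 to 6 between Pvalb- and Sst-like and Vip- and Lamp5-like interneurons. The edgeR fit with the mouse as a replicate block called 12 and 1 members in the 2 region comparisons, 10 and 2 with total count scaling, and without each mouse in turn 10, 11 or 12 and 0 to 3. The cause was not tested in any of these. Scaling by the median ratio moved the median of all genes by more than 0.1 on the log2 scale in 6 comparisons, by the all-gene medians given with each. Lesional neurons were few, so members with low counts there could not be compared.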
